A study of Mus musculus with 10 samples.

Results

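The circadian clock genes of the adult mouse right atrium were compared between mice with and without removal of Tbx5, a T-box transcription factor of the atria. The set was chosen by gene name: the activators Arntl, Clock and Npas2, the repressors Per1, Per2, Per3 and Cry2, the nuclear receptors Nr1d1 and Nr1d2, and the output regulator Dbp. These are 10 of the 23337 genes in the deposited table, and all 10 passed the filter on low counts that left 13084 genes for testing. RNA-seq libraries came from 4 control mice and 6 mutant mice, 1 library per mouse. All mice were of mixed strain, labelled 8 to 10 weeks old, although the extraction protocol gives 6 to 8 weeks. By the labels, the mutants had lost exon 3 of Tbx5 through a Cre recombinase that tamoxifen switches on and that is expressed from the R26 locus. The labels say of the controls only that they are controls. The study's text names R26CreERt2 mice as the controls of its left atrial libraries, and the genotype of these right atrial controls is not stated further. Tamoxifen was injected for 3 days at 0.167 mg per day and tissue was taken 1 week later. The protocol text is the same for both groups and does not say separately whether the controls were injected. R26 is active in all cell types, so its promoter does not limit removal to cardiomyocytes, the muscle cells of the atrium. Control mice are named M1, M2, F1 and F2 and mutant mice F1 to F3 and M1 to M3, where the letter is the sex label and the same number does not mark the same animal.

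In mammalian cells ARNTL (also called BMAL1) pairs with CLOCK or with its close relative NPAS2 and activates genes that carry an E-box, among them the Per and Cry genes. PER and CRY proteins build up over the day and block that pair, which closes the loop. A second loop runs through NR1D1 and NR1D2 (REV-ERB), which are themselves targets of the pair and repress Arntl through ROR elements, sites that the ROR receptors use to activate it. DBP is a further direct target that acts on D-box sites, for instance in the Per genes. As a result, in heart as in other tissues, Arntl transcripts peak at about the opposite time of day from Dbp and the Per transcripts. The level of each of these transcripts therefore depends on the hour at which tissue was taken. That hour is not given in the sources used here, so the hour and the genotype cannot be told apart in any difference below.

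The promoters of Arntl, Per1, Per3 and Dbp are shown because each holds a match to one of the motifs named above or to the T-box element, the core site that T-box proteins such as TBX5 bind. Each run is 300 bases of RefSeq sequence on the GRCm38.p6 build, 250 before the start site and 50 after it, printed 5′ to 3′ on the strand of the gene. Capitals mark the match. The search covered both strands for the E-box (CACGTG), the D-box (TTATGTAA or TTACGTAA), the ROR element (TAGGTCA) and the T-box (AGGTGT).
Arntl: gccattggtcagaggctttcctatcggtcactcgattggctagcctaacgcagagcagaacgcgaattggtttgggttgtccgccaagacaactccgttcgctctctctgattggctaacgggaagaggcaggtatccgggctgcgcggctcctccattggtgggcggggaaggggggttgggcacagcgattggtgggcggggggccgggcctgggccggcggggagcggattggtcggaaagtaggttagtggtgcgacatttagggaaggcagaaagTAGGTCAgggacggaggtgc
Per1: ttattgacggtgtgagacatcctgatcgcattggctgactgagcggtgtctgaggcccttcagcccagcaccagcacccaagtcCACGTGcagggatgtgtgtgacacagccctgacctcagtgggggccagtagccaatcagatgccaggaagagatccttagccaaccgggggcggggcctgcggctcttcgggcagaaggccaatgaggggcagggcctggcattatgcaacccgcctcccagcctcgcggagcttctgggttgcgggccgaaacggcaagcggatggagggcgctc
Per3: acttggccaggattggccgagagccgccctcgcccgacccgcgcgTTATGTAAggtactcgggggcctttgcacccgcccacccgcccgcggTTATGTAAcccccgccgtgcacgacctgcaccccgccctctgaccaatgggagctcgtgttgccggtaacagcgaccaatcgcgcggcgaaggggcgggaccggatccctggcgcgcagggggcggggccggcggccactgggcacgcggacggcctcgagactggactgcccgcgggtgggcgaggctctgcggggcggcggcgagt
Dbp: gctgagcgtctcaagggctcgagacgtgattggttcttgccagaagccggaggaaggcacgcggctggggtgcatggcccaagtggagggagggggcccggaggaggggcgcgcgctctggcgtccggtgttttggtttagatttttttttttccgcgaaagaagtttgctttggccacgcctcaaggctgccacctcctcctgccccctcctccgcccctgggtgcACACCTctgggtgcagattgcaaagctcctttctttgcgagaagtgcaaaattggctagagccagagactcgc

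The Arntl window, chr7:113207261-113207560 on the plus strand, belongs to the second of its RefSeq start sites and holds a ROR element that begins 30 bases after the start. The Per1 window, chr11:69098699-69098998 on the plus strand, belongs to the first of its start sites and holds an E-box 166 bases before it. In Per3, at chr4:151044616-151044915 on the minus strand, a pair of D-boxes begins 205 and 158 bases before the start. The Dbp window, chr7:45704997-45705296 on the plus strand, holds a T-box 23 bases before the start, which reads AGGTGT on the other strand and ACACCT as printed. Of 32851 RefSeq promoters of the same length, 7.15% held the E-box, 1.06% the D-box, 2.61% the ROR element and 13.7% the T-box. The windows of Clock, Npas2, Cry2, Nr1d1 and Nr1d2 held none of these letters, which says only that they do not occur in these windows. The promoter of Per2 is not shown here. A match is a description of the sequence, and no binding was measured in these libraries.

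The 10 libraries held 5703775 to 7095141 counts. Rn45s, the 45S ribosomal RNA precursor, took at most 1.49% of the counts in 9 libraries and 38.91% in mutant M3, which left 3484550 counts there. Values without that mouse are therefore given for Arntl, Clock, Nr1d1 and Dbp. Tbx5 itself was higher in the libraries labelled mutant, with a log2 fold change of 0.94 and an adjusted p of 0.000495, and 6 of 6 mutants lay above every control. That goes against the direction the label would give, and since the count sums reads over the whole gene it does not check the removal of exon 3. The mutant group is therefore named by its label throughout. Both control libraries labelled male held 7850 or more counts of Xist, the transcript of the inactive X chromosome, and 0 of the Y-linked gene Ddx3y. Both control libraries labelled female held at most 14 counts of Xist and at least 1124 of Ddx3y, so the sex labels of the 4 controls go against these genes, while those of the 6 mutants do not.

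Values are CPM (read counts scaled to a common library size) with library sizes adjusted by edgeR's trimmed mean of M values (TMM). All adjusted p values are from the quasi-likelihood test of edgeR, adjusted by the Benjamini-Hochberg method over the 13084 genes. The thresholds were those of the study's methods for left atrial RNA-seq, taken over here for the right atrium. A gene was called when its adjusted p was under 0.05, its fold change over 1.5 and its mean normalized signal in controls over 1. Of the 10 clock genes, 2 were called lower in the mutants, Arntl and Clock, and 0 were called higher, beside 7.16% and 8.50% of all tested genes. A share above the background thus rests on 2 genes, and no test was made over the set. Nr1d1 also passed the test at 1.46-fold lower, so that 3 of the 10 had an adjusted p under 0.05 and lower levels and 0 had higher levels, beside 15.0% and 16.3% of all genes. At an unadjusted p under 0.05 there were 4, the other being Dbp, which was on the higher side. The groups did not overlap for 1 of the 10, Arntl, which was lower in the mutants; among all tested genes 11.0% had every mutant below every control and 11.7% every mutant above. With 1 gene of 10, this share is near the background. The median log2 fold change of the 10 genes was -0.18, against -0.00495 over all tested genes, and 7 of the 10 values were below 0.

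**Figure D1:**
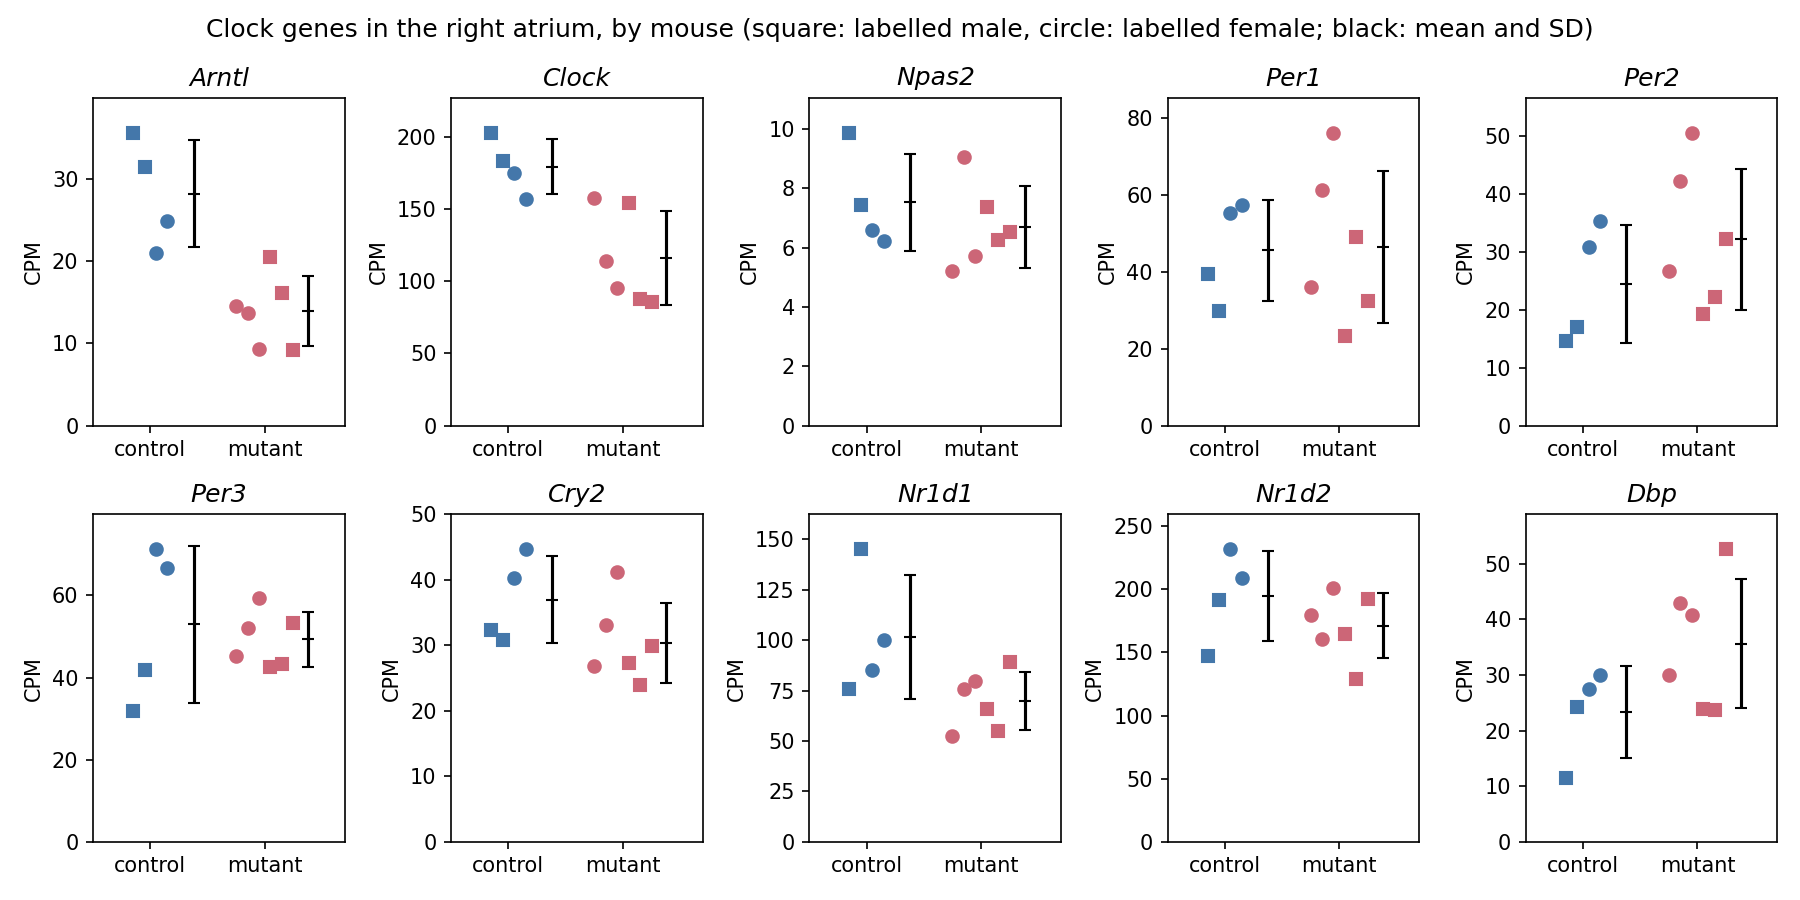
CPM of each clock gene in every mouse (y axis, from 0) by group (x axis). Blue points are the 4 control mice and red points the 6 mutant mice, squares were labelled male and circles female, and black bars give the mean and SD of each group. Every mutant lies below every control for Arntl and for no other gene shown, and for Per2 and Per3 the circles of the control group lie above its squares.

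Arntl, whose protein pairs with CLOCK or NPAS2, had the largest log2 fold change in size of the 10 genes. The gene lies at chr7:113207465-113314126 on the plus strand (GRCm38, GENCODE M21). It shares 33 exon bases with an antisense transcript, Gm45355. Its CPM in the control mice was 35.6 in M1, 31.4 in M2, 21.0 in F1 and 24.9 in F2. In the mutant mice it was 14.5 in F1, 13.7 in F2, 9.34 in F3, 20.6 in M1, 16.2 in M2 and 9.26 in M3. Mutant F3 and M3 were the lowest of the 10 mice, and the highest mutant, M1, lay just under the lowest control. The log2 fold change was -1.01 ± 0.205 (SE), a mean of 28.2 ± 6.52 CPM (SD, n = 4) in controls against 13.9 ± 4.30 (SD, n = 6) in mutants. The adjusted p was 0.00239. An exact two-sided permutation test of mean log2 CPM over the 210 assignments of mice gave p = 0.00952, the smallest that 4 against 6 mice allow. In each of 25 alternative analyses the adjusted p of Arntl stayed under 0.05, with log2 fold changes between -1.16 and -0.76. Without mutant M3 the log2 fold change was -0.93.

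Clock encodes the DNA-binding partner of ARNTL with acetyltransferase activity, and lies at chr5:76209868-76304792 on the minus strand. Control mice had 202 CPM in M1, 183 in M2, 175 in F1 and 157 in F2. Mutant mice had 158 in F1, 114 in F2, 95.6 in F3, 154 in M1, 88.0 in M2 and 85.5 in M3. Mutant F1 and M1 were at the level of the lowest control, F2, and the other mutants were well under it, so 5 of 6 mutants lay below every control. Clock had a log2 fold change of -0.63 ± 0.171 (SE) with an adjusted p of 0.0132, and the exact permutation test gave p = 0.0190. The call of Clock was close to its fold threshold. Its log2 fold change was -0.56 without control M1, -0.57 without mutant F3, -0.55 without mutant M2 and -0.56 without mutant M3, each under 1.5-fold with the adjusted p still under 0.05.

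Fold changes in these libraries also ran with transcript length. The Spearman correlation across the 11868 tested genes with a known transcript length was -0.314, so longer transcripts tended to be lower in the mutants (genes are not independent replicates). The longest transcript of Clock, 9744 bases, was longer than those of 97.1% of tested genes. When the dependence on transcript length was taken out of each library, the log2 fold change of Clock was -0.37 with an adjusted p of 0.0483, which is under the fold threshold. The same step left Arntl, with a transcript of 3995 bases, at -0.98 with an adjusted p of 0.00274.

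Npas2, which can stand in for CLOCK, was the least abundant activator and lies at chr1:39193731-39363236 on the plus strand. Its CPM was 9.86, 7.45, 6.58 and 6.23 in control M1, M2, F1 and F2. In mutants it was 5.20 in F1, 9.06 in F2, 5.71 in F3, 7.37 in M1, 6.26 in M2 and 6.53 in M3. The groups overlapped over nearly their whole range. Npas2 had a log2 fold change of -0.17 ± 0.189 (SE) with an adjusted p of 0.531. Within each library, Clock reads outnumbered Npas2 reads 20.5 to 26.5 times in controls and 12.6 to 30.3 times in mutants.

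The Per genes encode the repressors that enter the nucleus with CRY proteins, and none of the 3 passed the test. Per1 lies at chr11:69095217-69109960 on the plus strand. In controls it was at 39.4 CPM in M1, 29.8 in M2, 55.3 in F1 and 57.4 in F2, and in mutants at 36.0 in F1, 61.3 in F2, 76.0 in F3, 23.3 in M1, 49.1 in M2 and 32.4 in M3. The mutants held both the lowest and the highest of the 10 values, and their coefficient of variation was 42.5%. Between groups the log2 fold change was 0.04 ± 0.280 (SE) with an adjusted p of 0.935, and its sign changed with the processing.

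Per2, at chr1:91415982-91459324 on the minus strand, was at 14.6 CPM in control M1, 17.0 in M2, 30.7 in F1 and 35.3 in F2. Mutants had 26.7 in F1, 42.1 in F2, 50.5 in F3, 19.2 in M1, 22.1 in M2 and 32.1 in M3. Mutant F2 and F3 lay above every control, while none lay below every control. Per2 had a log2 fold change of 0.40 ± 0.291 (SE) with an adjusted p of 0.318.

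Per3, at chr4:151003652-151044665 on the minus strand, was at 31.9 CPM in control M1, 41.9 in M2, 71.2 in F1 and 66.7 in F2. In the mutants it was 45.3 in F1, 52.1 in F2, 59.2 in F3, 42.5 in M1, 43.2 in M2 and 53.4 in M3. All 6 mutants fell between the lower and the higher pair of controls, and the coefficient of variation was 13.5% in mutants against 36.0% in controls. Per3 had a log2 fold change of -0.10 ± 0.192 (SE), with an adjusted p of 0.710.

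Cry2 encodes a cryptochrome, the PER partner that blocks the ARNTL and CLOCK pair, and lies at chr2:92403646-92434043 on the minus strand. Its CPM was 32.3, 30.8, 40.3 and 44.7 in control M1, M2, F1 and F2. In mutants it was 26.8 in F1, 33.0 in F2, 41.3 in F3, 27.3 in M1, 23.9 in M2 and 30.0 in M3. Cry2 shares 295 exon bases with D930015M05Rik on the opposite strand. Here 4 of 6 mutants lay below every control, and mutant F3 lay among the higher controls. Between groups Cry2 had a log2 fold change of -0.28 ± 0.152 (SE) and the adjusted p 0.171. With each library left out, its log2 fold change ran from -0.38 to -0.17, with adjusted p values of 0.0460 to 0.447. Of these fits only the one without mutant F3, at -0.38, had an adjusted p under 0.05, still under 1.5-fold.

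Nr1d1 encodes REV-ERB alpha, a heme-binding repressor of Arntl, and lies at chr11:98767932-98775333 on the minus strand. Control mice had 75.6 CPM in M1, 145 in M2, 85.1 in F1 and 100 in F2. Mutant mice had 52.4 in F1, 75.8 in F2, 79.6 in F3, 65.8 in M1, 55.2 in M2 and 89.0 in M3. All 6 mutants lay below the control mean and 3 of them below every control, and control M2 stood highest. Nr1d1 had a log2 fold change of -0.55 ± 0.181 (SE) with an adjusted p of 0.0341, and the exact permutation test gave p = 0.0667. Single mice moved the result both ways. Without control M2 the log2 fold change was -0.32 and the adjusted p 0.155, and the adjusted p was also over 0.05 without control F2, mutant F1 or mutant M2, between 0.0595 and 0.0684. Nr1d1 was called without control M1 (-0.65, adjusted p 0.0203), control F1 (-0.62, 0.0370) or mutant M3 (-0.62, 0.0222). With the length trend removed it was -0.62 with an adjusted p of 0.0189, past the fold threshold, for a transcript of 2721 bases.

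Nr1d1 shares 263 exon bases with Thra, a thyroid hormone receptor gene on the opposite strand. The strand setting of the counting is not given in the sources used here, so reads in the shared bases cannot be assigned to either gene with certainty. Thra was lower in the mutants as well, with every mutant below every control, at a log2 fold change of -0.40 and an adjusted p of 0.00383. How much of the Nr1d1 value lies in the shared bases was not tested. The same limit holds for the exon bases that Arntl, Cry2 and Dbp share with genes on the opposite strand. Nr1d2, which encodes the related receptor REV-ERB beta, lies at chr14:18204054-18239127 on the minus strand and shares no exon bases with another annotated gene.

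Nr1d2 was at 147 CPM in control M1, 191 in M2, 232 in F1 and 209 in F2. In mutants it was 180 in F1, 161 in F2, 201 in F3, 164 in M1, 129 in M2 and 192 in M3. Mutant M2 was the single one below every control, and the other mutants lay inside the control range. Nr1d2 had a log2 fold change of -0.19 ± 0.138 (SE) with an adjusted p of 0.318.

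Dbp encodes a PAR bZIP activator that reads D-boxes, and lies at chr7:45705088-45710203 on the plus strand. Its CPM was 11.4 in control M1, 24.3 in M2, 27.4 in F1 and 30.0 in F2. In mutants it was 30.0 in F1, 42.9 in F2, 40.7 in F3, 23.8 in M1, 23.7 in M2 and 52.5 in M3. Mutant F2, F3 and M3 lay above every control, 6 of 6 mutants lay above the control mean, and control M1 was the lowest of the 10 mice. Dbp had a log2 fold change of 0.60 ± 0.266 (SE), the adjusted p 0.101 and the exact permutation p 0.152. Without mutant M3, the highest of the mice, it was 0.47 with an adjusted p of 0.187. With each library left out it ran from 0.38 to 0.76, with adjusted p values of 0.0595 to 0.248. With the length trend removed it was 0.46 with an adjusted p of 0.197, for a transcript of 1837 bases. Dbp shares 539 exon bases with Sphk2 on the opposite strand, and Sphk2 had a log2 fold change of 0.02 with an adjusted p of 0.901. The part of the shared bases in the Dbp value was not tested.

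**Figure D2:**
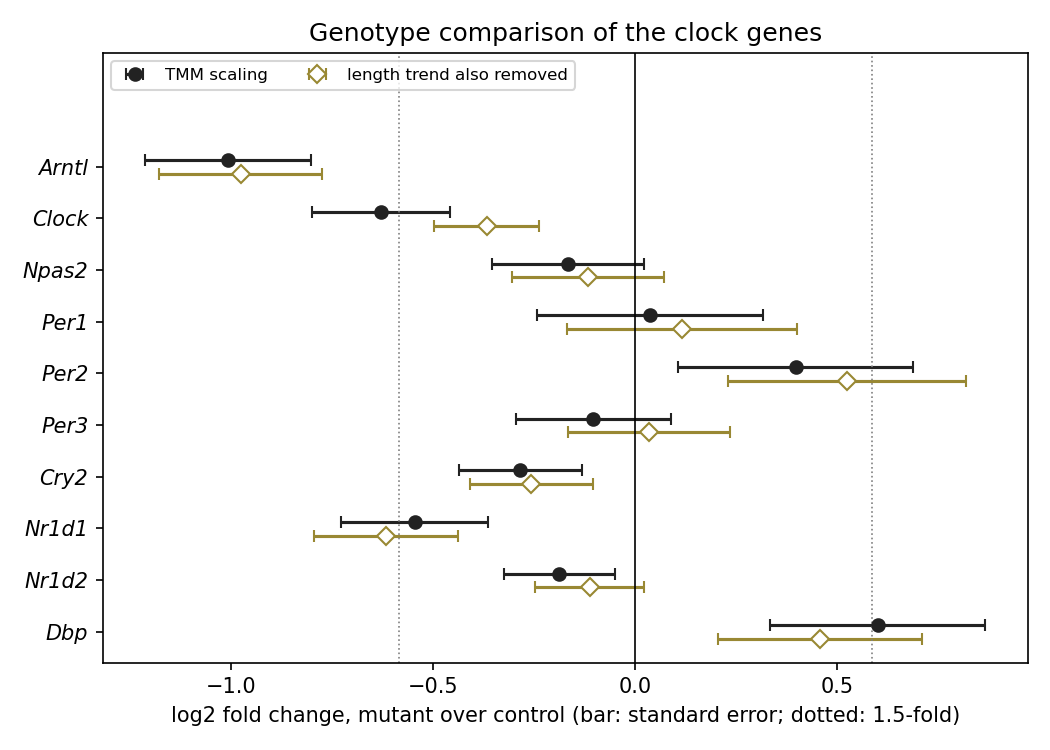
Log2 fold change (x axis, mutant over control, with standard errors) of the 10 clock genes (y axis) with TMM scaling (black circles) and after the dependence on transcript length was also taken out of each library (open diamonds). Dotted lines mark 1.5-fold. Arntl stays near -1.01 and -0.98, Clock moves from -0.63 to -0.37, and Nr1d1 moves from -0.55 to -0.62.

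Per kilobase of the longest transcript, the nuclear receptors had the highest means of the 10 genes in both groups. In controls Nr1d2 was at 41.8 ± 7.67 CPM per kilobase (SD, n = 4) and Nr1d1 at 37.3 ± 11.3, a difference within their SDs. Clock followed at 18.4 ± 1.95 and Dbp at 12.7 ± 4.50. Per1 at 9.74, Cry2 at 9.31 and Per3 at 8.82 CPM per kilobase lay within each other's SDs, and Arntl at 7.07 ± 1.63 lay within the SDs of Per1 and Per3. Per2 at 4.19 ± 1.74 and Npas2 at 1.78 ± 0.386 were the lowest. In mutants the order of the means was Nr1d2 at 36.7 ± 5.53 (SD, n = 6) and Nr1d1 at 25.6 ± 5.29, then Dbp at 19.4 ± 6.34. Clock followed at 11.9 ± 3.34. Nr1d1 and Dbp differed in mutants by less than the SD of Dbp. Arntl, at 3.49 ± 1.08 CPM per kilobase, and Per2, at 5.51 ± 2.08, differed in mutants by less than the SD of Per2.

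The ratio of reads of one gene to those of another in the same library does not depend on how libraries are scaled. Arntl peaks near the opposite time of day from Dbp, and their ratio was set out for that reason, with no test of its own. In controls Arntl reads per Dbp read were 3.11 in M1, 1.29 in M2, 0.766 in F1 and 0.829 in F2. In mutants they were 0.484 in F1, 0.320 in F2, 0.229 in F3, 0.863 in M1, 0.681 in M2 and 0.176 in M3. The groups overlapped, since mutant M1 lay above control F1 and F2, and the controls alone spanned a wide range. Arntl reads per Per2 read ran in a like way, from 0.684 to 2.44 in controls and from 0.185 to 1.07 in mutants.

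**Figure D3:**
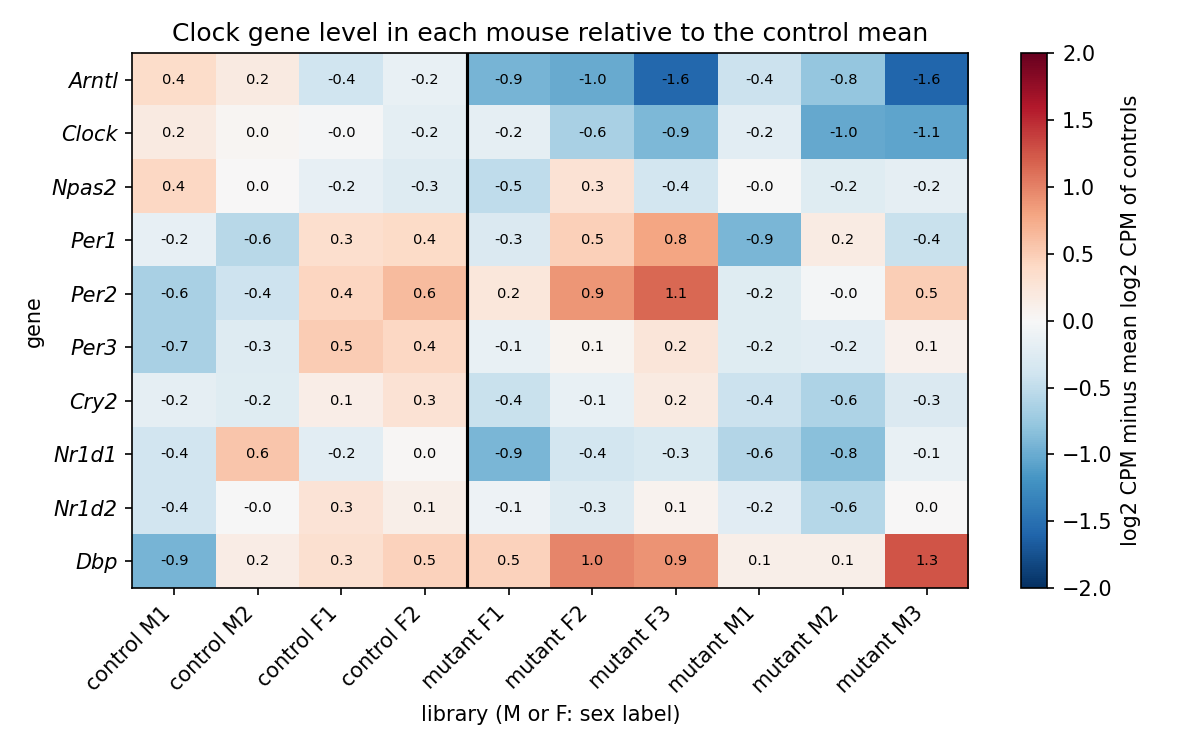
Level of each clock gene (y axis) in each library (x axis; M or F is the sex label, and the line parts the 4 controls from the 6 mutants), as log2 CPM minus the mean log2 CPM of the controls (colour and printed value). Arntl is below 0 in all 6 mutants and Dbp above 0 in all 6; control M1 and control F1 and F2 carry opposite signs in most rows.

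Mice of one group also differed from each other. Within controls, the libraries labelled female and male did not overlap for 9 of the 10 clock genes, all but Nr1d1, a comparison chosen after the values were seen. With 2 mice against 2 such gaps are common: among all tested genes, 23.5% were lower in both controls labelled female and 22.1% were higher. Per1, Per2, Per3, Cry2, Nr1d2 and Dbp were higher in the controls labelled female, 2.09-fold for Per2 and 1.87-fold for Per3. Arntl, Clock and Npas2 were lower in them, Arntl at 23.0 against 33.5 CPM. With 2 mice on each side, 0 of the 10 genes had an adjusted p under 0.05 by edgeR (3 at an unadjusted p under 0.05), beside 0.206% of all tested genes. The smallest adjusted p was 0.0617, for Per3. In the mutants the labels overlapped for all 10 genes, where 6.15% of all genes were lower and 6.19% higher in every mouse labelled female, and 0 of the 10 passed (2 at an unadjusted p under 0.05), beside 0.0611% of all genes. Since the control labels go against Xist and Ddx3y, these values are for the libraries as labelled. Sex, hour of dissection and other differences between the 2 pairs of control mice cannot be told apart.

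Whether the genotype difference itself depended on the sex label was tested with an interaction term. With the labels as given, 0 of the 10 clock genes had an adjusted p under 0.05 by edgeR (1 at an unadjusted p under 0.05, and 0 and 1 by limma), beside 0.290% of all genes. With the labels of the 4 controls exchanged, 0 of the 10 passed (6 unadjusted, and 0 and 5 by limma), beside 0.00764% of all genes. The smallest adjusted p was then 0.162, for Per2, with an interaction of -1.80 on the log2 scale.

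Several pairs of clock genes varied together from mouse to mouse once the mean of each group was taken away. For the 45 pairs of clock genes, the correlation of these deviations in log2 CPM over the 10 libraries was tested by exact permutation of mice within groups. By Pearson's r, 8 pairs had an adjusted p under 0.05, of which 6 were positive and 2 negative, by Spearman's rho 1 pair had, and at an unadjusted p under 0.05 for Pearson's r there were 17. The 8 pairs were made up of Arntl, Per2, Per3, Cry2, Nr1d2 and Dbp, and held none of Clock, Npas2, Per1 and Nr1d1. For Per1 this depends on the threshold, since Per1 and Per2 had r = 0.80 (exact permutation p = 0.0131, adjusted 0.059). As a description, 11 of the 45 pairs (24.4%) had an r of at least 0.766 in size, the weakest of the 8, against 3.19% of all pairs of tested genes. The 11 include pairs with an adjusted p over 0.05. Since the cut was taken from the clock gene pairs themselves, these shares are no test of the set. Both genes of a pair were read from the same libraries, so they share depth and scaling. Arntl and Per3 ran opposite, with r = -0.77 (exact permutation p = 0.00081, adjusted 0.0191) and rho = -0.83 (p = 0.000463, adjusted 0.0208). Without the 2 libraries farthest from the median of Arntl, r was -0.83, and in the 6 mutants alone it was -0.90 (exact permutation p = 0.0111). Arntl and Dbp had r = -0.81 (exact permutation p = 0.00556, adjusted 0.0417), rho = -0.84 (p = 0.0066, adjusted 0.0703) and r = -0.78 without the 2 farthest libraries.

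Per2 ran with both Per3 and Cry2. For Per2 and Per3, r was 0.88 (exact permutation p = 0.000868, adjusted 0.0191) and rho 0.83 (p = 0.00313, adjusted 0.0703), and r was 0.85 without the 2 farthest libraries. For Per2 and Cry2, r was 0.92 (exact permutation p = 0.00127, adjusted 0.0191) and rho 0.84 (p = 0.00937, adjusted 0.0703), and r was 0.88 without the 2 farthest libraries. In the 6 mutants alone, r was 0.95 for Per2 and Per3 (exact permutation p = 0.00694). For Per2 and Cry2 it was 0.90 (exact permutation p = 0.00972), and for Per3 and Cry2 0.91 (exact permutation p = 0.0111). Arntl and Dbp had r = -0.87 in these mice (exact permutation p = 0.0278). Other pairs of the 8 had an exact permutation p over 0.05 in the mutants alone. Per3 and Dbp had r = 0.86 (exact permutation p = 0.0528), and Per2 and Dbp r = 0.79 (exact permutation p = 0.0889). For Per3 and Nr1d2, r was 0.69 (exact permutation p = 0.118). These values describe the spread between mice of one group, which is wide for several clock genes: coefficients of variation ran from 10.6% for Clock in controls to 42.5% for Per1 in mutants.

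By the same deviations, the tested genes most like Arntl were Kntc1 with r = 0.98, Bub1 with 0.96 and Racgap1 with 0.95 over the 10 libraries, among 10 genes above 0.9. Those most like Dbp were Ndrg4 and 2210015D19Rik, each with 0.95, and Agap2 with 0.94, among 15 genes above 0.9. With 13084 genes and 10 libraries these likenesses are a description only.

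The wider clock network was represented by 19 further genes, among them the ROR receptors, the Bhlhe repressors, the PAR bZIP factors related to Dbp, and the kinases and ubiquitin ligases that act on PER and CRY. Of these, 17 were tested, and 1 was called lower and 0 higher, a share near or under that of all genes (7.16% and 8.50%), and the median log2 fold change was 0.13. The called gene was Rora, which encodes the ROR receptor that activates Arntl through the ROR element shown above. Rora was at 22.3 to 28.3 CPM in controls and 12.4 to 17.0 in mutants, with no overlap, a log2 fold change of -0.69 ± 0.116 (SE) and an adjusted p of 0.000604. Its longest transcript has 10878 bases, and with the length trend removed its log2 fold change was -0.40, under the fold threshold, and the 1 gene of the list called was then Timeless. The test without the fold threshold added 2 genes, named here after their values were seen. Btrc, a ubiquitin ligase subunit, had a log2 fold change of -0.33 with an adjusted p of 0.0137, and Timeless, a replication fork gene named after a fly clock gene, had 0.58 with 0.0136.

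Among 16 genes known to follow the clock in many tissues, 1 was called lower and 3 higher, beside 7.16% and 8.50% of all genes, and the median log2 fold change was 0.06. Nampt, the rate-limiting enzyme of NAD salvage and a known target of the ARNTL and CLOCK pair, was at 148 to 218 CPM in controls and 84.3 to 125 in mutants, a log2 fold change of -0.79 ± 0.128 (SE) with an adjusted p of 0.000474. Wee1, a mitotic kinase with E-boxes in its promoter in mouse, was at 10.3 to 19.1 CPM in controls and 19.2 to 44.6 in mutants, a log2 fold change of 1.11 and an adjusted p of 0.00320. Nampt and Wee1 thus moved in opposite directions, and the part of the ARNTL and CLOCK pair in either value was not tested. Mthfd1l, a mitochondrial enzyme of folate metabolism, had a log2 fold change of 1.60 with an adjusted p of 0.00378. Its level was low, at 0.429 to 3.76 CPM in controls and 5.05 to 8.71 in mutants. Tspan4, a tetraspanin, had 1.06 with an adjusted p of 0.000550.

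Glucocorticoids and body temperature are signals that set peripheral clocks, and 14 genes that follow them were read beside the clock genes. Of these, 3 were called higher and 0 lower, beside 8.50% and 7.16% of all genes, and the median log2 fold change was 0.32. Sgk1, a kinase induced by corticosteroids, was at 37.1 to 41.4 CPM in controls and 50.9 to 75.6 in mutants, a log2 fold change of 0.77 with an adjusted p of 0.000375. The metallothioneins Mt1 and Mt2, metal-binding proteins induced by glucocorticoids among other signals, had log2 fold changes of 1.09 and 1.95 with adjusted p values of 0.00150 and 8.65e-05. The heat shock gene Hsph1, named after its value was seen, had a log2 fold change of -0.58 with an adjusted p of 0.0401. No other gene of the list had an adjusted p under 0.05. Those given next were also named after their values were seen. The heat shock genes Hspa1a and Hspa1b were on the higher side, at 0.77 and 0.53, and Hsp90aa1 on the lower, at -0.30. Cirbp, Rbm3 and Tsc22d3 were at -0.04, -0.01 and 0.10, and Fkbp5 at 0.59 with an adjusted p of 0.138.

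**Figure D4:**
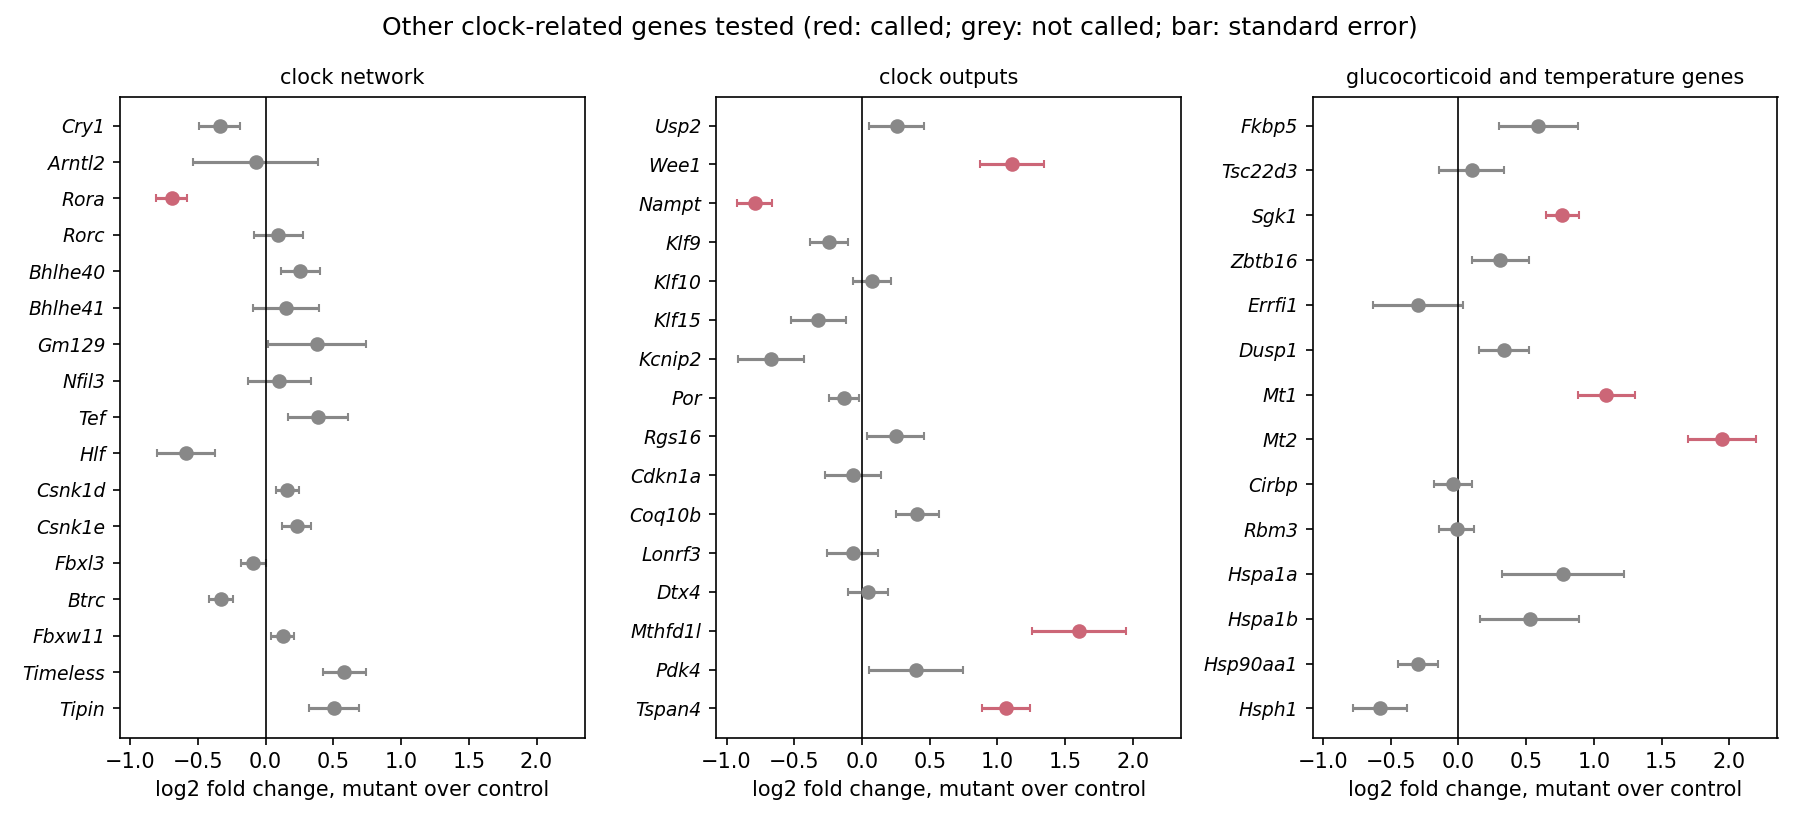
Log2 fold change (x axis, mutant over control, with standard errors) of the tested genes (y axis) in 3 lists beside the clock genes: 17 of the wider network, 16 outputs and 14 glucocorticoid and temperature genes. Red points were called and grey points were not: Rora is the 1 called gene of the first list, 4 genes of the second were called in both directions, and Sgk1, Mt1 and Mt2 of the third were called higher.

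Markers of other cells moved between the groups as well. All 4 tested leukocyte markers (Ptprc, Cd68, Emr1 and Csf1r) were called higher, and the summed level of the list, Cd3e included at near 0, was 163 to 235 CPM in controls and 276 to 375 in mutants. Of 3 smooth muscle markers 2 were called higher, Acta2 and Tagln (sum 77.1 to 134 CPM in controls and 142 to 530 in mutants). Myh11 was not called (log2 fold change 0.23, adjusted p 0.552). Of 5 fibroblast markers 2 were called higher, Col1a1 and Col1a2 (2635 to 3266 and 3209 to 4416). Pdgfra passed the test on the lower side, at -0.40 with an adjusted p of 0.0152, under 1.5-fold. Dcn and Lum, at -0.01 and 0.45, did not pass. Both tested erythroid markers were called higher (84.6 to 192 and 112 to 591, with Hba-a1 and Hba-a2 listed at 0). Of all tested genes, 8.50% were called higher and 7.16% lower. None of 4 endothelial markers (775 to 1014 and 860 to 994), 3 mesothelial markers (259 to 273 and 152 to 305) or the 1 tested Schwann cell marker (6.00 to 7.94 and 3.27 to 7.11) was called. The adipocyte list was too low to test, at 0.470 to 4.14 CPM in controls and 0 to 20.8 in mutants. The 6 cardiomyocyte markers, at a sum of 59270 to 70728 CPM in controls and 46980 to 62978 in mutants, were the most abundant of the marker lists; of them Tnnt2 and Pln were called higher and Ryr2 and Nppa lower. In whole tissue, fewer cells of a type and less RNA per cell cannot be told apart, and the part of these markers in the values of Arntl and Clock was not tested.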

How the data were processed

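Right atrial RNA from 4 control and 6 Tbx5 mutant mice was sequenced by the authors as single-end reads. The labels name both an mRNA kit and total RNA after ribosomal RNA removal. Per the labels, the processing notes name FastQC, TopHat2 2.0.11, featureCounts, DESeq2 and the mm10 build; the annotation and strand setting are not given in the sources used here. The deposited table holds raw counts per gene, which were tested, and a normalized signal, the counts divided by 1 constant per library, which was used only for the threshold of 1 in controls. The deposited log2 fold change, fold ratio, p-value, score and mean columns are the authors' own comparison and were not used.

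Counts were tested with edgeR 4.0.16 in R 4.3.3: TMM scaling, filterByExpr, which kept 13084 genes, a quasi-likelihood fit of group over all 10 libraries, and Benjamini-Hochberg adjustment. Log2 CPM for correlations and permutation tests used a prior count of 1. The SE of a fold change is its log2 value divided by the root of the F statistic. The scripts were tested on simulated data. Alternatives covered scaling, filter, test (DESeq2 1.42.0, limma 3.58.1), sex label, replicate block, transcript length (lowess span 0.4, GENCODE M21 lengths), thresholds and each library left out. The same replicate numbers label different animals, and the deviations of same-numbered mice correlated by -0.047 to 0.0358 over 4 pairs. No pairing by number was therefore assumed.

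Named genes were all 10 clock genes, every called gene of the 3 related lists (at most the 6 with the smallest adjusted p per list) and the 3 genes most like Arntl and Dbp. Thra, Sphk2, cell type markers and genes said to be named after their values were seen are given besides. Ciart and Adgre1 are listed in the table as Gm129 and Emr1. The clock genes and lists were chosen with earlier results of these data known. Nothing says how mice were drawn beyond their labels. The p-values for the groups set their difference against the spread between these mice, and speak for these mice only. With 5703775 to 7095141 counts per library, single clock genes held 24 to 1546 counts.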

Additional observations from a re-analysis of the deposited data

Results flagged for a closer look

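Per3 differed in opposite directions by sex label. Its 3 mutant libraries labelled male, at 42.5 to 53.4 CPM, all lay above the control libraries labelled male, at 31.9 and 41.9, while its 3 mutant libraries labelled female, at 45.3 to 59.2, all lay below the controls labelled female, at 66.7 and 71.2. The interaction of genotype with the sex label was 0.73 on the log2 scale, with an adjusted p of 0.255 over all genes by edgeR. With the sex labels of the 4 controls exchanged it was -1.09, with an adjusted p of 0.162. Every mutant lay between the lower and the higher pair of controls, so any split of the mutants would give such a pattern. The pattern describes the gap between the pairs of controls, whose sex labels go against Xist and Ddx3y. In 20 groups of clock gene values, 0 held a mouse that stood apart from its group at the 95% level, where chance gives about 1.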

How the results depend on the processing

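The number of clock genes called, 2, was 1 with the libraries labelled male only, with those labelled female only, at an adjusted p under 0.01 and at a fold change over 2, each time Arntl, and 1 to 3 with each library left out (1, Arntl, without mutant F3 or M2). The number of wider network genes called, 1, was 2 with upper-quartile scaling, without the filter, with DESeq2 and with the sex label as a covariate, 3 without a fold threshold, 4 with the libraries labelled female, 0 at a fold change over 2, and 1 to 4 with each library left out (4 without control M1, 3 without mutant F3, and 2 without control M2, mutant F2 or mutant M1). Rora was among them except at a fold change over 2 and in both analyses with the length trend removed. Genes added were Timeless, Hlf, Tipin and Btrc. The number of all genes called was 1284 at a mean count of at least 50, 906 at a fold change over 2, 4096 without a fold threshold and 1807 to 2205 with each library left out. With the replicate block, 2 clock genes (Arntl and Nr1d1), 3 wider network genes and 1957 of all genes were called, and Cry2 passed the test at -0.41. The block matches mice by letter and number, although these are different animals. Mutant F3 and M3 have no control of their label, so they add nothing to the fold changes of that fit. With the block and the length trend removed, the log2 fold change of Clock was -0.26 with an adjusted p of 0.106.

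The log2 fold change of Per1 was -0.035 with limma, -0.13 with the block, -0.061 with the block and the length trend removed, and -0.15 to 0.18 with each library left out. That of Per3 was 0.034 with the length trend removed, 0.33 in libraries labelled male and -0.28 to 0.071 with each library left out. Npas2 was at 0.071 in libraries labelled female and -0.27 to 0.0044 with each library left out. Clock was at -0.82 with an adjusted p of 0.0643 in libraries labelled male and at -0.44 with 0.116 in those labelled female. Nr1d1 had an adjusted p of 0.152 and 0.118 there, and 0.0203 to 0.155 with each library left out. The comparisons within a label rest on fewer mice. By Xist and Ddx3y, each also sets controls against mutants of the opposite sex, so sex and genotype cannot be told apart there. The sex label as a covariate carries the same mismatch. The cause of the other changes was not tested. The count of pairs that varied together, 8, was the same with DESeq2 size factors. Exchanging the control sex labels was added after the data were seen and left the called clock genes at 2. Npas2 at 24 counts in 1 library is the thinnest value.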
